A study of Homo sapiens with 12 samples.

Results

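The Jak2-10 comparison set the 3 arrays of HEL cells that carried this JAK2 hairpin against the 6 arrays of cells that carried a control construct, and covered every gene on the array. The arrays were chosen by their titles, which gave 9 of the 12 arrays in the series, and 11940 genes were tested. HEL is an established acute myeloid leukaemia line with erythroid and megakaryocytic features, and all arrays, controls included, come from cells with the V617F mutant form of JAK2. Each group of 3 arrays received lentivirus built on a pLKO vector with puromycin selection: the hairpin Jak2-10, the hairpin Jak2-9, a luciferase hairpin (Luc), or a GFP control that the labels call both a hairpin and a vector. No array of uninfected cells is among them, so every value is relative to infected cells. Arrays of a group are numbered in the labels, with no word on whether they came from separate cultures, so every p-value rests on an array-to-array spread that may be technical. RNA was taken from whole cultures, where fewer cells of a kind and less RNA per cell cannot be told apart.

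JAK2 is a tyrosine kinase bound to the inner side of cytokine receptors such as those for erythropoietin and thrombopoietin. When active it phosphorylates STAT proteins, which enter the nucleus and switch on genes such as CISH, SOCS2, PIM1 and BCL2L1, several of which feed back on the receptor or protect the cell from death. The V617F change leaves the kinase active without a cytokine, and it is a common lesion of the myeloproliferative neoplasms.

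The values are deposited intensities per probe set, a set of short probes that reads 1 stretch of a transcript, and a gene was read at its brightest probe set. Differences are Jak2-10 minus the mean of the control groups on the log2 scale, where -1 is a 2-fold fall. A gene is said to have fallen or risen where limma's adjusted p was below 0.05 over all genes. Markers of the line were present: control arrays had mean log2 intensities of 14.69 for HBG1 and 14.74 for HBG2 (fetal globins), 11.47 for TAL1 and 9.86 for GATA1 (red cell transcription factors), and 10.48 for ITGA2B (a platelet integrin). None of these 5 genes fell or rose. Arrays of 1 group correlated at 0.995 or more, except in the Jak2-9 group, where the lowest correlation was 0.985. Jak2-9 arrays entered the fit only through the spread, and they also counted in the mean intensity that chose the brightest probe set.

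The targeted transcript was lower in the cells with Jak2-10 at both of its probe sets. The JAK2 intensity was 1066, 1049 and 880 on the 3 Jak2-10 arrays, against a lowest of 1347, a median of 1466 and a highest of 1637 on the 6 control arrays. All 3 Jak2-10 arrays lay below all 6 controls, and replicate 3 was the lowest. JAK2 stood at 67% of control (95% interval 54.9 to 81.8), a log2 difference of -0.58 ± 0.13 (SE) with limma's adjusted p = 0.0824, so it did not pass the threshold over all genes. It passed in the fit limited to the 9 arrays (adjusted p = 0.00491), without Jak2-9 replicate 1 (0.00326) and without Jak2-9 replicate 3 (0.0419). At the dimmer probe set, log2 values were 8.19, 8.22 and 8.06 with Jak2-10 against 8.68 to 8.9 in the controls, a difference of -0.63. The exact two-sided permutation test gave p = 0.0238 at each JAK2 probe set, the smallest that 3 arrays against 6 can give (adjusted p = 0.0397 over 5 such tests).

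A control probe set for Alu repeats, a sequence family scattered through the introns and untranslated ends of human transcripts, was also lower. Its log2 values were 14.15, 14.15 and 14.01 with Jak2-10, against a lowest of 14.5, a median of 14.64 and a highest of 14.68 in the controls. The groups did not overlap, and the difference was -0.5 (exact two-sided permutation p = 0.0238, adjusted p = 0.0397). The control probe sets at the 3′ and 5′ ends of ACTB, which report RNA length, differed by 0.13, 0.18 and 0.2 with Jak2-10 and by 0.19 to 0.38 in the controls (exact two-sided permutation p = 0.0476, adjusted p = 0.0595). For GAPDH the same measure gave an exact two-sided permutation p of 0.452. The part of these technical readings in the gene results was not tested.

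**Figure D1:**
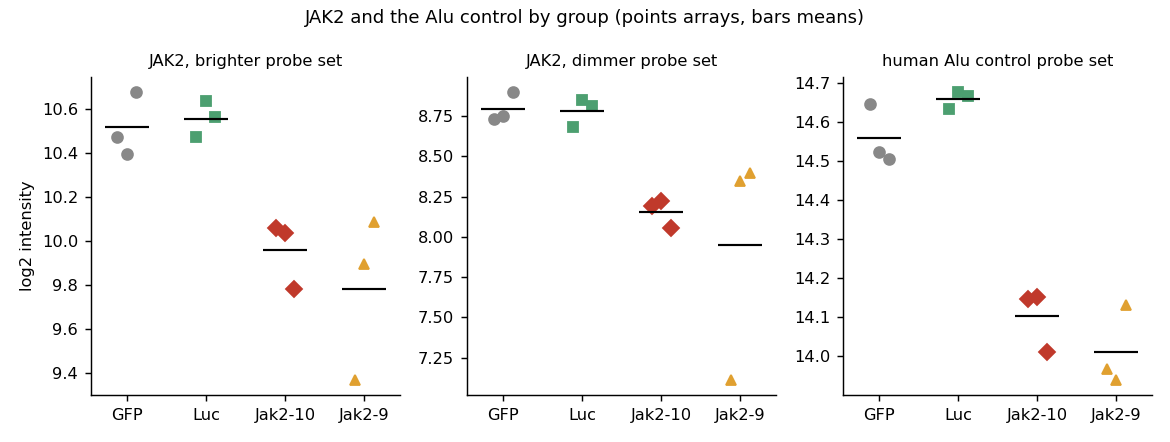
Log2 intensity of both JAK2 probe sets and of the Alu control probe set on each array, by group. The 3 Jak2-10 arrays lie below all 6 control arrays in each panel, with Alu at 14.01 to 14.15 against 14.5 to 14.68.

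Genes past the threshold with Jak2-10 were mostly falls. In the limma fit, 77 of 11940 genes fell (0.645%) and 5 rose (0.0419%). A fall of at least 2-fold was seen for 14 genes (0.117%) and a rise of that size for 1 (0.00838%). The 77 fallen genes had a median difference of -0.72, from -0.38 to -2.4, while the median over all genes was 0.02. For 75 of the 77, all Jak2-10 arrays lay below all controls, as they did for 310 of all genes tested (2.6%), while for 320 (2.68%) they lay above. Over all genes, 5187 differed below 0 (43.4%) and 6753 above (56.6%). At an unadjusted p below 0.05 the counts were more even, with 371 genes lower (3.11%) and 317 higher (2.65%), and with more higher than lower in the fit of the 9 arrays (609 against 573) and with array weights (987 against 548).

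The number of falls moved with single arrays. With Jak2-10 replicate 1, 2 or 3 removed it was 26, 29 or 26. Removal of GFP replicate 1, 2 or 3 gave 39, 37 or 72, and removal of Luc replicate 1, 2 or 3 gave 39, 51 or 37. Leaving out Jak2-9 replicate 1 raised it to 130, with 19 rises, and the fit of the 9 arrays alone gave 117 falls and 15 rises. A core of 22 fallen genes, and no risen gene, passed in the fits of 12 and of 9 arrays and in each of the 12 fits that left out 1 array.

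**Figure D2:**
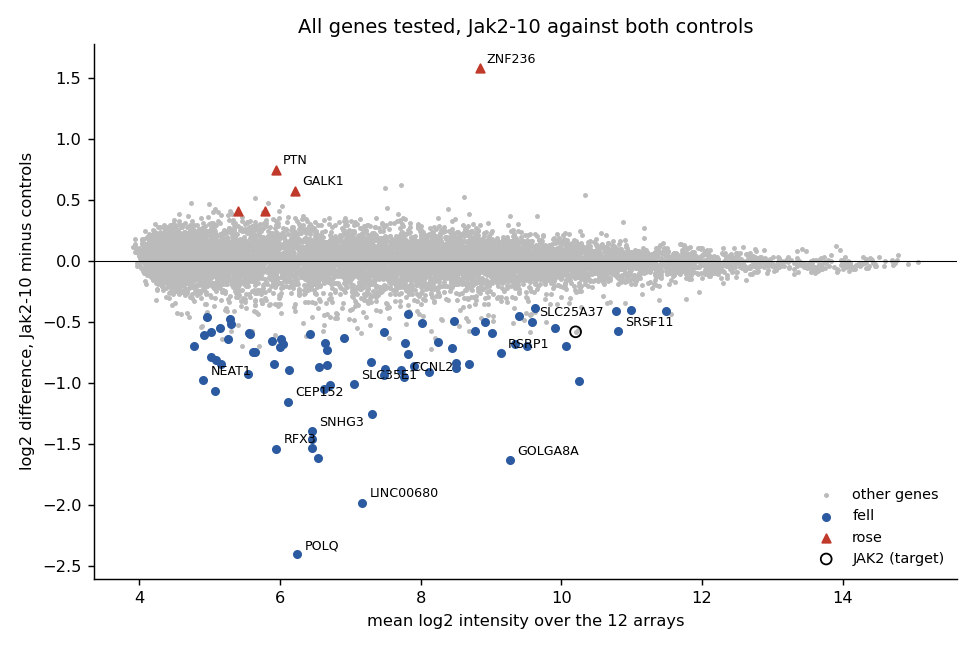
Each point is 1 of the 11940 genes, with its mean log2 intensity over the 12 arrays on the x axis and its log2 difference, Jak2-10 minus controls, on the y axis. The 77 falls (blue) reach -2.4 at POLQ, the 5 rises (red triangles) reach 1.58 at ZNF236, and JAK2 (open circle) lies at -0.58.

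The largest fall was that of POLQ, the DNA polymerase theta of microhomology-mediated break repair. Its intensity was 33.5, 36.7 and 30.6 with Jak2-10, against a lowest of 97.7, a median of 204 and a highest of 256 in the controls. The groups did not overlap, and GFP replicate 3 held the lowest control value. POLQ stood at 18.9% of control (15.1 to 23.7), a difference of -2.40 ± 0.15 with limma's adjusted p = 2.39e-06. It fell against GFP alone by 1.97 (adjusted p = 0.000221) and against Luc alone by 2.83 (adjusted p = 1.78e-06).

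LINC00680, a long noncoding RNA, read 89, 80.9 and 87 with Jak2-10 and 209, 371 and 465 at the lowest, median and highest control. Its groups did not overlap, GFP replicate 2 was the lowest control, and it stood at 25.4% of control (difference -1.98 ± 0.22, limma adjusted p = 0.000499). SNHG3, a host transcript for small nucleolar RNAs, read 50.4, 60.5 and 50.8 against 115, 144 and 171. GFP and Luc arrays of SNHG3 overlapped each other, and Jak2-10 lay below both, at 38.1% of control (difference -1.39 ± 0.14, adjusted p = 0.000324). CEP152, a scaffold for centriole duplication, read 53.5, 50.6 and 52.5 against 80, 119 and 164. The 3 CEP152 values with Jak2-10 were almost alike while the controls spread widely, and the difference was -1.15 ± 0.11 (45% of control, adjusted p = 0.000319).

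Further falls named by size were in single genes of varied roles. GABBR1, a subunit of the metabotropic GABA receptor, read 56.6, 64.8 and 42.6 with Jak2-10 against 107, 174 and 217, and fell by 1.61. RFX3, a transcription factor of cilium genes, read 43.8, 40.3 and 38 against 74.2, 132 and 163, and fell by 1.54. In both genes every Jak2-10 array lay below every control. The fall of RFX3 was seen at 1 of its probe sets, and the other, dimmer one differed by -0.14. CTTNBP2NL, a cortactin-binding family protein, read 61.3, 61.8 and 45 against 99.2, 170 and 232, and fell by 1.53. SCAF4, which binds RNA polymerase II and acts on transcript ends, read 129, 99.1 and 118 against 181, 271 and 446, and fell by 1.26. MPDZ, a scaffold with many PDZ domains, read 143, 142 and 134 against 228, 260 and 294, and fell by 0.88. CAPRIN2, an RNA-binding protein, read 208, 240 and 186 against 302, 419 and 504, and fell by 0.91. These 4 genes showed no overlap between Jak2-10 and control arrays. SLC35E1, a member of a nucleotide sugar transporter family, read 95.9, 91.7 and 98.1 against 136, 206 and 225. It fell by 1.01 at its brightest probe set, but the other probe sets differed by 0.16 and 0.04, and the mean of its probe sets did not pass (-0.27, adjusted p = 0.239).

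Members of multi-copy families stood among the large falls, and their probes may read several near-identical copies, so the copy is uncertain. GOLGA8A, a golgin, read 394, 429 and 352 with Jak2-10 against 804, 1250 and 1602 (difference -1.63). ANKRD36B, an ankyrin repeat gene, read 52.1, 68.5 and 50.3 against 96, 171 and 190 (difference -1.45). LRRC37A, a leucine-rich repeat gene, read 25.3, 20.2 and 24 against 35.4, 44.7 and 76.6 (difference -1.07). CROCCP2, a pseudogene of the ciliary rootlet gene, read 313, 293 and 221 against 436, 508 and 550 (difference -0.87). In these 4 cases the groups did not overlap. NOTCH2NLA, AGAP4, TBC1D3E and PKD1P6-NPIPP1, also of duplicated families, fell by 0.98, 0.87, 0.70 and 0.68. AGAP4 passed in each fit that left out 1 array. The calls of NOTCH2NLA (0.053 to 0.341), TBC1D3E (0.0658 to 0.158) and PKD1P6-NPIPP1 (0.0715 to 0.352) were lost without any 1 Jak2-10 array, GFP replicate 1 or 2 or Luc replicate 1 or 3, and in part without GFP replicate 3, Luc replicate 2 or Jak2-9 replicate 2. Probe sets with names ending in _x_at, a design class that may hybridise to other sequences, served for 21 of the 77 fallen genes (27.3%) and for 7.95% of all genes.

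**Figure D3:**
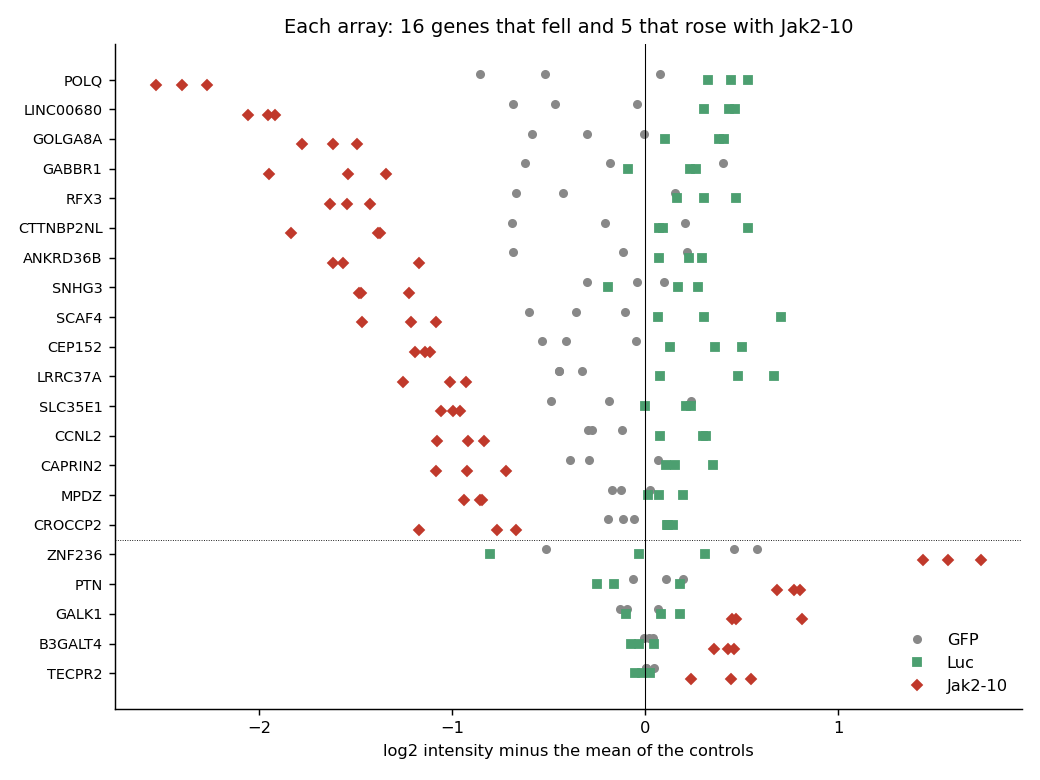
Log2 intensity of each Jak2-10, GFP and Luc array minus the mean of the control groups, for the 16 largest falls that passed in the fits of 12 and 9 arrays and with each array left out, and for the 5 risen genes (below the dotted line). Jak2-10 arrays stand outside the control range in each gene shown; over all 77 falls the median difference was -0.59 from GFP and -0.86 from Luc.

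A group of falls with a shared role lay in RNA processing. Of 46 measured SR proteins, splicing kinases and nuclear speckle genes, 7 fell and none rose, against 0.645% of all genes that fell. In this list 39 of 46 members differed below 0, as did 43.4% of all genes, with a median of -0.14 against 0.02 over all genes. For 14 members the arrays did not overlap, all lower. Over all genes 2.6% lay lower without overlap and 2.68% higher. The list was drawn up with earlier results of these arrays known, so its counts describe and do not test. The 44 core snRNP and spliceosome proteins measured had a median of -0.01, and none fell or rose.

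CCNL2 and CCNL1, cyclins that partner splicing-related kinases in speckles, both fell. CCNL2 read 172, 162 and 145 with Jak2-10 against 249, 302 and 381 at the lowest, median and highest control, a difference of -0.94 (52% of control, limma adjusted p = 0.00175). CCNL1 read 353, 366 and 293 against 516, 601 and 735, a difference of -0.84 (adjusted p = 0.0125), and lost its call without Jak2-10 replicate 1 (0.0668) or replicate 3 (0.149). Neither cyclin had a Jak2-10 array within the control range. RSRP1, an arginine- and serine-rich protein, read 458, 450 and 426 against 625, 765 and 875, a difference of -0.75 (adjusted p = 0.00035). PNISR, a serine- and arginine-rich speckle protein, read 293, 343 and 223 against 407, 461 and 551, a difference of -0.71 (adjusted p = 0.0185). The PNISR call was lost without GFP replicate 1 (0.0567), Jak2-10 replicate 1 (0.0806) or 3 (0.145), or Luc replicate 1 (0.0532). SRSF11, an SR protein, fell by 0.57, and its call was lost when any of 7 arrays was left out, at adjusted p from 0.0585 to 0.195: GFP replicate 1 or 2, any Jak2-10 replicate, or Luc replicate 2 or 3. ARGLU1, a speckle coactivator, fell by 0.55 and lost its call without Jak2-10 replicate 3 (0.0529). LUC7L3, related to a yeast U1 snRNP factor, fell by 0.40, and its call was lost in 10 of the 12 fits that left out 1 array, all but those without Jak2-9 replicate 1 or 3, at adjusted p from 0.0538 to 0.239. Other probe sets of LUC7L3 differed by -0.66 and -0.49, those of PNISR by -0.73 and -0.88, and those of SRSF11 by -0.53 and -0.52. All passed over probe sets but LUC7L3 at -0.49 (limma adjusted p = 0.107) and SRSF11 at -0.53 (0.0869).

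Read 1 probe set at a time, falls in this list went further and were uneven within some genes, though not in PNISR, LUC7L3 or SRSF11. Across the array 196 of 19415 probe sets fell (1.01%) and 16 rose (0.0824%), and in the list 16 of 106 fell, in 11 genes, and 1 rose. The second, dimmer probe set of RSRP1 read 43.6, 45.4 and 48.2 with Jak2-10 against 157, 238 and 358, a difference of -2.45 ± 0.19 with limma's adjusted p = 1.79e-05 over probe sets. The RSRP1 transcript was thus read at 18.3% of control at 1 probe set and at 59.4% at the other. SRSF7, an SR protein, did not pass at its brightest probe set (-0.13), but another of its 4 read 281, 336 and 236 against 621, 805 and 885 (difference -1.47, adjusted p = 0.000164). The remaining probe sets of SRSF7 differed by -0.08 and 0.07. TRA2A, a splicing activator, read 29.8, 27.6 and 23.6 against 35.7, 57.2 and 89.8 at 1 of its 3 probe sets (difference -1.13, adjusted p = 0.000302). The brightest TRA2A probe set differed by -0.12 and the remaining one by -0.54, and neither passed. RBM39 and RBM5, RNA-binding splicing regulators, each had 1 probe set that fell, by 0.46 and 0.51. U2AF2, which recognises the polypyrimidine tract before an exon, had the single probe set that rose, at 236, 269 and 254 against 166, 185 and 195 (difference 0.47, adjusted p = 0.0198). The brightest U2AF2 probe set differed by -0.07 and the remaining one by -0.02. SRSF7, TRA2A, RBM39, RBM5 and U2AF2 were named here after their values were seen, and calls of single probe sets were not recomputed with arrays left out.

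Noncoding RNAs made up a further set. Of 9 measured long noncoding RNAs and snoRNA hosts, 4 fell, against 0.645% of all genes: LINC00680, SNHG3, NEAT1 and SNHG20. This list too was drawn up with earlier results of these arrays known, so its counts describe and do not test. NEAT1, the scaffold RNA of paraspeckles, read 21.3, 22 and 22.1 with Jak2-10 against 26.4, 39.9 and 79.4, a difference of -0.97 (limma adjusted p = 0.0254). Jak2-10 arrays lay below the controls at dim intensities, and the call was lost without GFP replicate 1 or 2, any Jak2-10 replicate, or Luc replicate 3 (0.0647 to 0.184). SNHG20 fell by 0.51 and lost its call in 9 of the 12 fits that left out 1 array, all but those without Jak2-9 replicate 1 or 3 or Luc replicate 1 (0.0593 to 0.38). The other members, with PVT1 at 0.15 and TUG1 at -0.28, did not pass.

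Repair, replication and centrosome lists held a few falls each, read against 0.645% of all genes. They were likewise drawn up with earlier results of these arrays known, and their counts describe and do not test. POLQ was the only gene of 37 measured double-strand break repair genes to fall in this fit, where the list's median was -0.04. ATM, the kinase that senses breaks, read 277, 228 and 213 against 340, 399 and 451 with no overlap, but did not pass (-0.72 ± 0.25, limma adjusted p = 0.517). FAN1, a nuclease of crosslink repair outside the list and named after its values were seen, fell by 1.05 (82.6, 75.8 and 62.6 against 109, 154 and 185, adjusted p = 0.00946), and lost its call without Jak2-10 replicate 2 (0.0585) or 3 (0.142). DBF4B, an activator of the replication kinase CDC7, was the single fall among 47 G1/S and replication genes: 25.3, 24.7 and 26.6 against 38.9, 42.7 and 54.1 (difference -0.81 ± 0.10, adjusted p = 0.000724). Its values were dim in both groups, yet did not overlap. Of 46 centrosome and cilium genes, RFX3, CEP152 and CROCCP2 fell (3 genes), with a list median of -0.01. None of 38 G2/M and mitosis genes fell or rose.

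Zinc finger genes, mostly repressors bound to DNA through repeated fingers, gave 7 falls and 1 rise among 228 measured, against 0.645% and 0.0419% of all genes. They made up 9.09% of the fallen genes and 1.91% of those tested. ZNF721 read 174, 190 and 205 with Jak2-10 against 283, 343 and 408, with no overlap (difference -0.86, limma adjusted p = 0.00197). ZNF160 read 134, 126 and 147 against 163, 279 and 331 (difference -0.93, adjusted p = 0.00981), and lost its call without any 1 Jak2-10 array (0.0556 to 0.078). ZNF331 fell by 0.85, and lost its call without GFP replicate 2, any Jak2-10 replicate or Luc replicate 1 (0.0532 to 0.218). Among the falls, ZNF721, ZNF160 and ZNF611 were read at _x_at probe sets, which may hybridise to other sequences. The rise was that of ZNF236, whose other probe sets differed by 0.07 and -0.1.

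Genes known as outputs of JAK-STAT signalling showed no call in either direction. Among 22 measured STAT5 target genes none fell or rose, and the median difference was 0.04. CISH, a STAT5-driven inhibitor of the receptor, read 344, 346 and 368 with Jak2-10 against 280, 325 and 370 in the controls. The groups overlapped, and CISH stood at 107% of control, with a 95% interval of 90.8 to 127. PIM1, a survival kinase, read 836, 804 and 676 against 752, 785 and 848, at 97.5% of control (84.8 to 112). MYC read 7539, 7339 and 6339 against 6490, 6908 and 7197, at 103% (88.8 to 119). Each of these Jak2-10 groups overlapped its controls. BCL2L1, an inhibitor of apoptosis, stood at 101% (86.2 to 119) and SOCS2, a feedback inhibitor, at 104% (90.3 to 120). CISH, PIM1, MYC, BCL2L1 and SOCS2 were named here after their values were seen. The members of lowest p in the list were GFI1B, CCND1, PIM2 and BCL2. Each stood at 112% of control, and its groups overlapped.

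The sequences just upstream of 3 transcripts are shown for where the STAT motif lies in them. They are the 250 bases before the first start listed by RefSeq (GRCh38.p14), 5′ to 3′ on the gene's strand, for CISH, a classical STAT5 target without a call, and for SNHG3 and POLQ, 2 of the large falls. Capitals mark the STAT motif TTCNNNGAA, which reads the same on both strands. The windows are chr3:50611775-50612024 (minus strand) for CISH, chr1:28505693-28505942 (plus strand) for SNHG3 and chr3:121545989-121546238 (minus strand) for POLQ.
CISH: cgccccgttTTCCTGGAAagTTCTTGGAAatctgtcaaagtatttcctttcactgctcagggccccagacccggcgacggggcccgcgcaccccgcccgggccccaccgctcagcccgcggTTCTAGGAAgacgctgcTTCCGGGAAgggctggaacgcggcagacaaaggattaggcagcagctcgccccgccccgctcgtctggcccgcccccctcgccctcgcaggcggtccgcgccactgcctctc
SNHG3: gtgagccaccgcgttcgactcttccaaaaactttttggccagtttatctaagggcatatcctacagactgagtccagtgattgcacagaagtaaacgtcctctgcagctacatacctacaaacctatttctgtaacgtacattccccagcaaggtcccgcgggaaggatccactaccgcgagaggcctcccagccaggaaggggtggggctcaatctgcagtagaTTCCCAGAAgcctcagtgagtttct
POLQ: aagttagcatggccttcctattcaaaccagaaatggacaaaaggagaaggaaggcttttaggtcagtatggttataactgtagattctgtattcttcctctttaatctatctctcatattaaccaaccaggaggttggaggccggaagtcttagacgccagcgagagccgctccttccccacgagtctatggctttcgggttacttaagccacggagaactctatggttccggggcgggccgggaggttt
CISH held 4 matches, SNHG3 held 1 and POLQ held 0. Of the 77 fallen genes, 62 had a promoter in the table and 4 of them (6.45%) held the motif: METTL3, SNHG3, TAF1D and ZNF331. METTL3, the catalytic subunit of the m6A RNA methyltransferase, fell by 0.38 (limma adjusted p = 0.0425), and TAF1D, a subunit of an RNA polymerase I factor, by 0.40 (0.0414). Both lost their calls without any 1 array other than Jak2-9 replicate 1, at up to 0.255 and 0.261, and ZNF331 lost its call in 5 of these fits (0.0532 to 0.218). The other, dimmer probe set of METTL3 differed by -0.88 and that of TAF1D by -1.14 (limma adjusted p = 0.0112 and 0.00191 over probe sets). The motif stood in 5.76% of the 9593 promoters of genes tested and in 6.78% of all 27305 promoters of this length. Of 16 matched STAT5 target genes, 2 held it. The motif AGATAA, known for GATA factors and searched on both strands, stood in 6 of the 62 (9.68%) and in 6.1% of the genes tested. A match is a string in this window and not a binding site.

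Other parts of the pathway gave no call, and intervals bound their differences. Among 9 JAKs and STATs, no member passed, and the median difference was -0.08. JAK1 stood at 98.3% of control (82 to 118), TYK2 at 92.2% (78.2 to 109), STAT3 at 99.3% (87.9 to 112), STAT5A at 94.6% (78.7 to 114) and STAT5B at 102% (89.4 to 117). Of 27 receptors that signal through JAKs none passed, with a median of 0.02. EPOR, the erythropoietin receptor, read 251, 224 and 279 against 162, 198 and 241, so the groups overlapped (difference 0.35, limma adjusted p = 0.506). IFNAR2, a type I interferon receptor chain, read 1177, 1150 and 1139 against 964, 983 and 1051, above all controls without passing (difference 0.22, adjusted p = 0.463). IL6ST, the shared receptor chain of the interleukin-6 family, differed by -0.37 at its brightest probe set and by 0.03 over the mean of its probe sets. The 16 inhibitors of the pathway had a median of 0.04 and no call at their brightest probe sets. At the level of probe sets 1 of 34 fell (2.94%, against 1.01% of all): a dimmer one of 4 for PIAS1, a SUMO ligase that restrains STATs, at 27.3, 25.7 and 30.2 against 36.5, 54.9 and 64.6 (difference -0.88, adjusted p = 0.00475). The brightest PIAS1 probe set differed by -0.05. SOCS1 and SOCS3 differed by 0.10 and 0.03, both at dim intensities.

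Pathways that run beside or below JAK2 gave no calls either. The lists of ERK output (19 measured genes), FOXO targets (21), NF-kB and cytokine genes (27), the BCL2 family (18) and p53 targets (19) held no gene that fell or rose, with medians from -0.05 to 0.05. KLHL24, a FOXO target, read 117, 107 and 117 against 123, 163 and 215 with no overlap, and missed the threshold (difference -0.47, limma adjusted p = 0.0962) in the fit of 12 arrays. It passed with the 9 arrays alone (0.0269), with array weights (0.0196), against Luc alone (0.0183) and without Jak2-9 replicate 1 (0.0453). Over the mean of its 3 probe sets KLHL24 differed by only -0.09 (limma adjusted p = 0.956). IFIT2, an interferon-induced gene, read 34.7, 40.8 and 44.9 against 26.6, 29.6 and 35.6, and the groups overlapped (difference 0.41, adjusted p = 0.362). The 40 interferon-stimulated and antigen presentation genes had a median of 0.05 and no call, and the 13 small RNA pathway genes a median of -0.04 and no call.

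Blood cell identity genes gave a single call at the brightest probe sets, against 0.645% of all genes that fell. Of 36 globin, haem and red cell genes 1 fell, SLC25A37, the mitochondrial iron importer of red cell precursors. It read 696, 672 and 627 with Jak2-10 against 809, 910 and 1073, below all controls (71% of control, difference -0.49 ± 0.10, limma adjusted p = 0.0362). The call was lost without GFP replicate 1 or 2, any Jak2-10 replicate, or Luc replicate 2 or 3 (0.0881 to 0.255). The 34 megakaryocyte and platelet genes, 29 blood cell transcription factors and 24 granulocyte and monocyte genes held no call, with medians of 0.04, 0.01 and 0.03. Summed intensities of 16 lymphoid markers were 1100 to 1143 with Jak2-10 and 1028 to 1174 in the controls, and those of 17 stromal and epithelial markers 2878 to 3115 and 2641 to 2920. PECAM1 made up a large part of the latter sums, at 1426, 1335 and 1284 with Jak2-10 and 1093 to 1290 in the controls. No marker of these lists was called, and none reads 0 on this scale. EZH1, a Polycomb methyltransferase, was the single fall among 26 chromatin regulators of myeloid neoplasms (52.3, 54.6 and 33 against 63.9, 84.3 and 101, difference -0.84, adjusted p = 0.0425). It lost its call in 10 of the 12 fits that left out 1 array, all but those without Jak2-9 replicate 1 or 3 (0.0525 to 0.352). The other EZH1 probe sets differed by -0.56 (limma adjusted p = 0.0315 over probe sets) and -0.02.

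**Figure D4:**
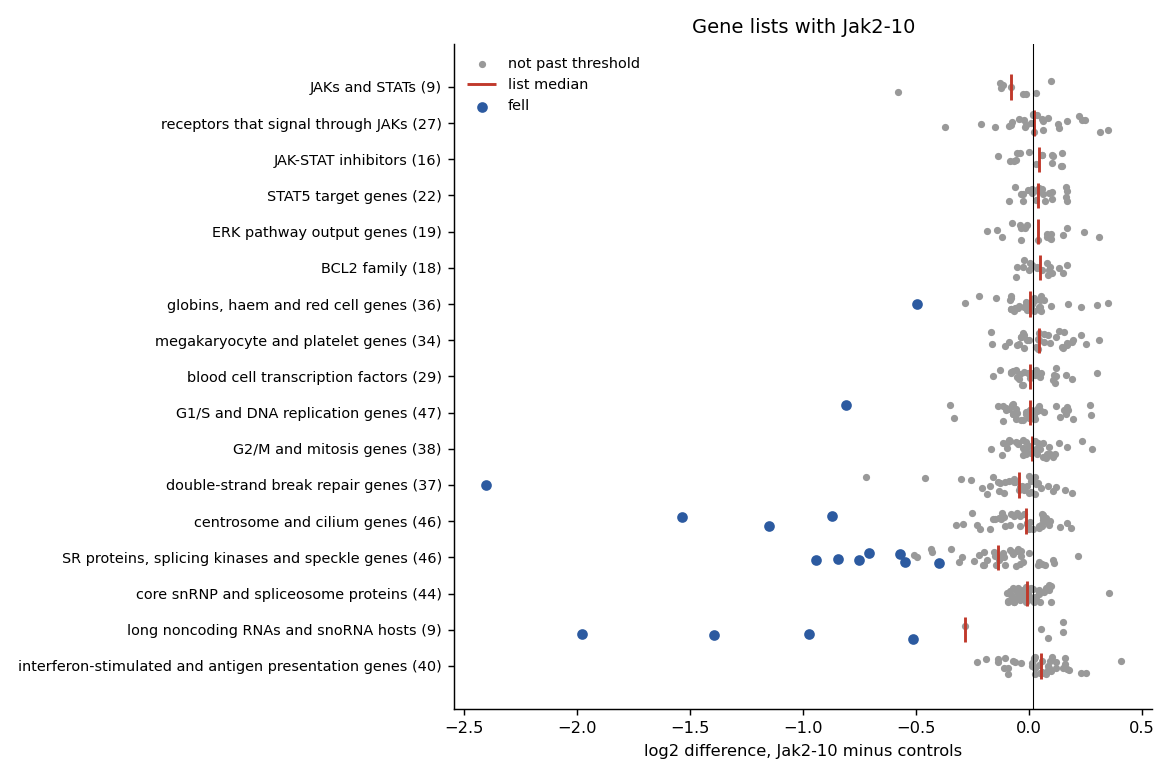
Log2 difference, Jak2-10 minus controls, of each measured member of the lists named, with the number measured in parentheses; blue points fell, grey points did not pass, red bars are list medians and the vertical line is the median over all genes, 0.02. Among the lists drawn, speckle genes hold 7 falls and long noncoding RNAs 4, and the JAK-STAT lists show none; most of the 77 falls lie in no list drawn.

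Metabolic and stress genes held no call at their brightest probe sets. The 27 cholesterol and fatty acid synthesis genes had a median of 0.06, the 32 glycolysis and hypoxia genes 0.03, the 30 amino acid and ER stress genes 0.05 and the 53 respiratory chain and ATP synthase subunits 0.02. The 25 heat shock genes, 22 ribosome biogenesis genes and 21 housekeeping genes held none. In all, 25 of the 33 lists had no member that fell or rose at its brightest probe set.

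Some members of these lists fell at a dimmer probe set only, read against the 1.01% of all probe sets that fell. In the red cell list 3 of 63 probe sets fell: that of SLC25A37, 1 of 3 for UROD, a haem synthesis enzyme, and 1 of 4 for SLC11A2, an iron transporter. UROD read 41.5, 36.3 and 31.6 there with Jak2-10 against 50.8, 83 and 91.4 (difference -1.03, limma adjusted p = 0.0012), and SLC11A2 130, 125 and 83 against 148, 177 and 232 (-0.71, adjusted p = 0.036). RUNX1, a blood cell transcription factor, read 38.7, 41.1 and 25.9 against 42.6, 57.8 and 58.8 at 1 of its 7 probe sets (-0.65, adjusted p = 0.0458). ATP5F1C, an ATP synthase subunit, fell at 1 of 4 probe sets by 1.11, BUB1, a mitotic checkpoint kinase, at 1 of 5 by 0.85, PKM, a glycolytic enzyme, at 1 of 3 by 0.73, and IFI44, an interferon-induced gene, at 1 of 2 by 0.70. Jak2-10 arrays lay below all controls at each of these 7 dimmer probe sets. Among zinc finger genes 11 of 307 probe sets fell (3.58%), the largest of them for ZNF609, at 1 of its 4, by 1.81. No probe set fell in the lists of JAKs and STATs, their receptors or STAT5 targets.

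None of the 5 rises kept its call in every fit that left out 1 array. ZNF236, a zinc finger gene, read 689, 777 and 630 with Jak2-10 against 133, 258 and 348, above every control, at 2.99-fold (difference 1.58 ± 0.32, limma adjusted p = 0.0391). Its other probe sets differed by 0.07 and -0.1, and the call was lost in 9 of the 12 fits that left out 1 array, all but those without Jak2-9 replicate 1 or 3 or Luc replicate 2 (0.0525 to 0.23). PTN, a secreted heparin-binding growth factor, read 78.6, 77 and 72.3 against 37.9, 45.9 and 51.6, at 1.68-fold (difference 0.75 ± 0.13, adjusted p = 0.0172). Its other probe sets differed by 0.01, 0.19 and 0.08, and the call was lost without GFP replicate 1, any Jak2-10 replicate, or Luc replicate 1 (0.0501 to 0.108). GALK1, the galactokinase, read 77.6, 98.2 and 76.5 against 51.1, 55.5 and 63.5, at 1.49-fold (adjusted p = 0.045), and lost its call without any 1 of the Jak2-10 or control arrays (0.0751 to 0.341). B3GALT4, a galactosyltransferase of gangliosides, read 52.6, 48.9 and 51.5 against 36.4, 38.5 and 39.5, at 1.33-fold (adjusted p = 0.0362). TECPR2, an autophagy-related protein, read 71.4, 57.5 and 66.5 against 47, 49 and 50.3, also at 1.33-fold (adjusted p = 0.0448), with its other probe set at -0.08. In these 5 genes no Jak2-10 array lay within the control range. B3GALT4 lost its call without any Jak2-10 or control array or Jak2-9 replicate 2 (0.05 to 0.189), and TECPR2 in the same cases except without Jak2-10 replicate 2 (0.0565 to 0.317).

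The falls were larger against Luc than against GFP. Against Luc alone 79 genes fell (0.662%) and 3 rose (0.0251%). Against GFP alone 17 fell (0.142%) and none rose in the limma fit, with 277 lower (2.32%) and 217 higher (1.82%) at an unadjusted p below 0.05. Against each control separately 15 genes fell (0.126%) and none rose. For the 77 genes the median difference was -0.86 against Luc and -0.59 against GFP, and 4 of them differed more from GFP. Luc minus GFP itself gave no call in the limma fit, with 108 genes lower (0.905%) and 121 higher (1.01%) at an unadjusted p below 0.05 and a lowest adjusted p of 0.245. By array, the median of the 77 relative to the control mean was -0.7, -0.68 and -0.81 with Jak2-10. It was 0.02, -0.14 and -0.25 in the GFP replicates and 0.1, 0.11 and 0.16 in the Luc replicates. GFP replicate 3 lay below the control mean for 75 of the 77, and the part of this array in the results was not tested beyond its removal. The count of genes that fell against each control was 9 without it, and ranged from 1 to 50 over the arrays left out in turn. Removal of GFP replicate 1, Jak2-10 replicate 1 or Jak2-10 replicate 3 left 1 gene, of GFP replicate 2 left 2 and of Jak2-10 replicate 2 left 3. Removal of Luc replicate 2 or 3 left 7 or 6, while 50 passed when Jak2-9 replicate 1 was removed.

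Genes that fell with Jak2-10 are set beside their values with the other hairpin, which shares the control arrays, so the comparisons are not independent. With Jak2-9 the 77 had a median difference of -0.9. POLQ differed by -2.49, SNHG3 by -1.37, RSRP1 by -0.89 and CCNL2 by -1.01. JAK2 itself differed by -0.75 with Jak2-9. Jak2-10 minus Jak2-9, the direct test between hairpins, gave no call in the limma fit (lowest adjusted p = 0.499), with 875 genes lower (7.33%) and 299 higher (2.5%) at an unadjusted p below 0.05. The difference was 0.08 for POLQ (95% interval -0.29 to 0.46), -0.03 for SNHG3 (-0.38 to 0.33) and 0.18 for JAK2 (-0.16 to 0.51). For LINC00680 it was 0.94 (0.39 to 1.5) and for CEP152 0.67 (0.39 to 0.95), where Jak2-9 was lower, at an adjusted p of 0.499 each.

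**Figure D5:**
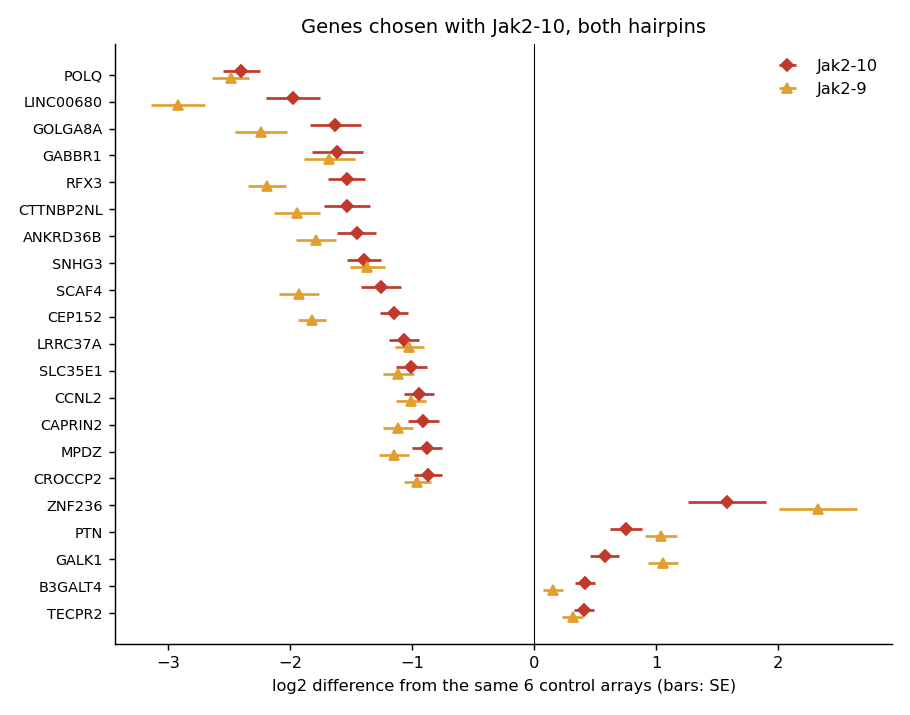
Log2 difference from the same 6 control arrays with Jak2-10 (diamonds) and with Jak2-9 (triangles), with bars for the SE, in the 16 fallen and 5 risen genes chosen with Jak2-10. Both hairpins lie on the same side of 0 for each gene, and the shared controls tie their values together.

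Span, coding class and dimmer probe sets of the fallen genes were not used by the calls. Their median genomic span was 39.1 kb, against 28.7 kb over all genes. Of the 77, 6 were not protein-coding, against 201 of all genes tested, and protein-coding genes made up 92.2% and 98.3%. Of the 77, 35 had more than 1 probe set. Their median difference was -0.69 at the brightest, the value that made the calls. It was -0.4 over the mean of the others, which lay above 0 for 8 of them. Just inside the threshold stood PHC3, a Polycomb protein (adjusted p = 0.0474, lost in the fits without GFP replicate 3, Jak2-9 replicate 2 or 3, or any Jak2-10 or Luc replicate, at 0.0587 to 0.303), and just outside it SPOUT1, a methyltransferase family member, at 0.60 (limma adjusted p = 0.052).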

How the data were processed

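The authors deposited 1 table of linear intensity values per probe set for 12 Affymetrix arrays, and the submitters' processing notes name RMA as the method, in a version not given in the sources used here. It makes the arrays' distributions alike and compresses changes of dim probe sets. RNA was taken with Trizol and 20 ng amplified with a NuGEN kit, per the labels' protocols. The design had assumed log2 values, so log2 was taken first, with no value added.

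Of 22930 probe sets, 524 controls were left out, 19415 had 1 gene symbol, 125 had several and 2866 were not named. Entrez identifiers of 19290 matched RefSeq. The brightest probe set stood for each of 11940 genes. Limma 3.58.1 (R 4.3.3, lmFit and eBayes) fitted 4 group means to the 12 arrays, and p-values were adjusted by Benjamini-Hochberg over all genes, at 0.05. JAK2 and control probe sets also had an exact two-sided permutation test (scipy 1.17.1). The fit was tested on simulated data. Array number limits the precision, and no detection calls were used.

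Members and lists were chosen with earlier results of these arrays known. A rule picked JAK2 and up to 16 falls and 10 rises. The falls and rises had to pass in the fits of 12 and 9 arrays and with each array left out. No rise did so, and the 5 rises of the 12-array fit were taken. Per list the rule picked up to 3 members that passed or the 2 of lowest p (up to 4 for JAK-STAT lists). Some genes it picked are not read out in the text, and other genes were chosen after their values were seen. Alternatives were the 9 arrays alone, a replicate block, other centring, filters, offsets and probe set rules, an intensity trend, array weights, single controls, and leaving out each array. Deviations of same-numbered arrays correlated at -0.118 to 0.181 (median 0.0494, over 18 pairs). Those of other-numbered arrays correlated at -0.199 to 0.165 (median -0.0158, over 36 pairs). Both were weak, and numbers were not taken to pair arrays in the main fit. Hairpin sequences are not used here.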

Additional observations from a re-analysis of the deposited data

Results flagged for a closer look

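Of 2991 probe sets without a single gene name, which no comparison of genes used, 1 was higher with Jak2-10 than in the controls. It is probe set 209372_x_at, with a mean log2 intensity of 6.32 with Jak2-10 and 5.91 in the controls, a difference of 0.41 ± 0.09 (limma adjusted p = 0.046 over all probe sets). It was flagged only because it lies outside the gene tests. Its share of the unnamed probe sets, 0.0334%, was below the 0.0824% of probe sets with 1 gene symbol that rose in their own fit. In the same data 82 probe sets fell (2.74%, against 1.01% of those with 1 gene symbol). The largest falls were 220918_at (difference -2.12) and 220969_s_at (difference -2.05).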

How the results depend on the processing

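The 77 falls became 117 with the 9 arrays alone, 46 with log2 of the value plus 32, 145 with array weights, 17 with GFP alone as control, and 196 of the probe sets each on its own. The 5 rises became 15, 1, 48, 0 and 16 in that order, 3 with an intensity trend and 3 with Luc alone. With array weights the split of 145 falls to 48 rises thus set against 77 to 5. Leaving out 1 array gave 26 to 130 falls and 0 to 19 rises. Falls against each control, 15 in the fit of 12 arrays, were 39 with the 9 arrays, 4 with the added 32, 70 with array weights, and 1 to 50 with 1 array left out. Luc minus GFP gave 2 calls with array weights and 0 to 1 with 1 array left out; Jak2-10 minus Jak2-9 gave 0 in each fit run. JAK2 passed with the 9 arrays (-0.58, adjusted p = 0.00491), an intensity trend (-0.58, 0.0359) and array weights (-0.50, 0.00302), and its difference ran from -0.63 to -0.49 with 1 array left out. Among the 16 largest falls named, SLC35E1 did not pass with the mean of probe sets (0.239), nor, with GFP alone, did GOLGA8A (0.0519), SCAF4 (0.15), LRRC37A (0.137), CCNL2 (0.112) and CAPRIN2 (0.128). The causes were not tested.

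With the replicate number as a block, 46 genes fell and 1 rose, all 47 among the 82 calls without it. The labels do not say whether arrays of 1 number share more than the number. All 82 calls were kept with the 9 arrays alone and with array weights, and 64 of them with the mean of all probe sets. Over the 82 genes named by the rule other than JAK2, 1757 of 1879 recomputed values kept direction and side of the threshold, 111 no longer passed, 7 newly passed and 4 turned: STAT4 (-0.12) to 0.04 with array weights and, with 1 array left out, to a range from -0.25 to 0.08, and IL6ST to 0.03 and NDUFB8 to -0.06 with the mean of probe sets. Dim probe sets near background limit the size of falls, and detection was not assessed.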

Other observations

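Of the 22 falls that held in the fits of 12 and 9 arrays and with each array left out, 6 lay outside the 16 largest: AGAP4, ZNF721, PDE4C, DBF4B, RSRP1 and KHDC4. PDE4C, a phosphodiesterase that breaks down cyclic AMP, read 116, 127 and 119 with Jak2-10 against 179, 212 and 259 at the lowest, median and highest control, with no overlap (difference -0.82 ± 0.12, limma adjusted p = 0.00319). The fall was seen at 1 of its 3 probe sets, and the others differed by 0.04 and 0.29. KHDC4, an RNA-binding protein with a KH domain, read 577, 635 and 473 against 761, 903 and 1069 (difference -0.69 ± 0.10, adjusted p = 0.00264). Neither gene had a Jak2-10 array within the control range.

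Other falls, chosen after their values were seen, touched single enzymes and regulators. HDC, the histidine decarboxylase that makes histamine, was among the brightest falls: 2528, 2442 and 2350 with Jak2-10 against 3030, 3311 and 3410 (difference -0.41 ± 0.08, limma adjusted p = 0.03). The groups did not overlap, but the call was lost without any 1 of the Jak2-10 or Luc arrays or GFP replicate 1 or 2 (0.0623 to 0.184). SLC25A16, a mitochondrial carrier, read 184, 177 and 142 against 262, 307 and 367 (difference -0.89 ± 0.13, adjusted p = 0.00356), and lost its call without Jak2-10 replicate 3 (0.0537). The other probe sets of SLC25A16 differed by 0.18 and -0.05. MZF1, a myeloid zinc finger protein, read 76.8, 83.6 and 82.2 against 98, 130 and 158 (difference -0.67 ± 0.10, adjusted p = 0.00472), and lost its call without Jak2-10 replicate 1 (0.0594). The other 5 probe sets of MZF1 differed by -0.76 to 0.14. FLCN, the folliculin tumour suppressor, read 23.6, 25.9 and 25.5 against 34.2, 37.8 and 43.3 (difference -0.60 ± 0.10, adjusted p = 0.0125), and lost its call without any 1 of the Jak2-10 arrays (0.0604 to 0.0992).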
